A study of Mus musculus with 12 samples.

Results

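Tumor epithelium was compared with tumor-adjacent epithelium within mice that carry the genotype FSPCre-PPARB -/-, called KO here. Members were chosen by 1 rule, a genotype characteristic of KO, which took 6 of the 12 arrays of the series: 3 with the tissue label tumor epithelium and 3 labelled tumor adjacent epithelium. The other 6 arrays came from PPARB flox/flox littermates and entered only the alternatives that say so. All mice were males on a C57BL6/J APCmin/+ background, harvested at 25 weeks of age. By the genotype characteristic every array of this comparison carried both the Apc Min mutation, which leads to intestinal adenomas, and the Cre-driven loss of Ppard, the gene of the nuclear receptor PPAR-beta/delta. Cre stood under the promoter of fibroblast-specific protein, the product of S100a4, so it was directed at fibroblasts, while the RNA came from epithelium cut by laser from stained sections of tumors. Nothing in the labels ties an array to an animal, so arrays may share a mouse, and p-values measure only the spread between these arrays, part of which may be technical.

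The lining of the small intestine renews itself from stem cells at the base of the crypts, where Wnt signals keep beta-catenin in the nucleus and drive division. Cells leaving the crypt differentiate, most of them into enterocytes, which carry a brush border of microvilli with digestive enzymes and with transporters for sugars, amino acids and fats. Loss of Apc, part of the complex that destroys beta-catenin, keeps the Wnt program on, and adenomas of Apc Min mice are known for high levels of Wnt feedback genes such as Notum, Nkd1, Wif1 and Axin2 and of crypt genes such as Lgr5, Cd44 and Sox9. Differentiated enterocyte genes are known to be low in such adenomas. PPAR receptors bind fatty acids and, with RXR partners, switch on genes of lipid uptake and fatty acid oxidation.

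Adjacent array 1 has labels that disagree. Its description and genotype characteristic say KO, and its title says floxed, whereas adjacent arrays 2 and 3 are KO by every label. Each result is therefore given for all 6 arrays (3 against 3) and again for 5 arrays without adjacent array 1 (3 against 2). Values are log2 expression of 1 probe set per gene, over 19938 genes. The 6 arrays were alike in overall signal: array medians ran from 4.332 to 4.375, SDs within an array from 1.486 to 1.573, and correlations between arrays over all probe sets from 0.947 to 0.973. Adjacent array 1 correlated with tumor arrays 1, 2 and 3 at 0.970, 0.973 and 0.956, and with adjacent arrays 2 and 3 at 0.960 and 0.958. Adjacent arrays 2 and 3 correlated with each other at 0.973.

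Epithelial markers were present in both groups. Epcam, an adhesion protein of epithelia, lay at 4.71, 5.35 and 6.29 in tumor arrays 1 to 3 and at 4.89, 5.55 and 5.72 in adjacent arrays 1 to 3, and the keratin Krt8 lay at 7.12 to 8.55 and at 6.78 to 8.09. Neither differed beyond its spread, with limma adjusted p-values of 0.978 and 0.901 over 6 arrays. Some markers known to be high in Apc-deficient adenomas were higher in adjacent arrays 2 and 3 than in the arrays labelled tumor, while others, such as Axin2, Ascl2 and Olfm4, did not pass in either fit. Notum, a secreted enzyme that inactivates Wnt proteins, lay at 4.86, 4.75 and 4.83 in the arrays labelled tumor, at 4.78 in adjacent array 1, and at 6.50 and 6.30 in adjacent arrays 2 and 3. The high arrays were thus adjacent arrays 2 and 3, which are KO by every label. Adjacent array 1, whose labels disagree on genotype but all say adjacent, lay within the range of the tumor group. Tissue is named below as labelled, "tumor arrays" meaning those labelled tumor, and all directions rest on those labels.

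Ppard itself was measured at 6.06, 6.07 and 6.50 in the tumor arrays and at 6.13, 5.76 and 5.51 in the adjacent arrays. The groups overlapped through adjacent array 1, and the difference of 0.41 ± 0.19 (log2, SE, n = 3 and 3) did not pass the test, with a limma adjusted p of 0.552. Without adjacent array 1 it was 0.58 ± 0.18 (SE, n = 3 and 2; adjusted p = 0.183). By the genotype characteristic both groups carry the deletion, though the title of adjacent array 1 says otherwise, and it was aimed at fibroblasts, so these levels do not check the genotype. S100a4, whose promoter drove Cre, lay between 4.20 and 4.66 in all 6 arrays, and Apc between 4.94 and 5.56. Neither passed in either fit. Among the other receptors of the family, Ppara differed by 0.29 ± 0.18 (adjusted p = 0.694) and Pparg by 0.17 with an adjusted p of 0.867 over 6 arrays.

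Across the whole table, 0 of 19938 genes passed an adjusted p under 0.05 with all 6 arrays (0%), by limma with Benjamini-Hochberg adjustment. The smallest adjusted p was 0.118, and 1893 genes had an unadjusted p under 0.05, of which 1004 were higher and 889 lower in the tumor arrays. In 1574 genes (7.89%) all 3 tumor arrays lay above all 3 adjacent arrays, and in 1262 genes (6.33%) all 3 lay below. Without adjacent array 1, 365 genes passed: 111 were higher in the tumor arrays (0.557% of the genes tested) and 254 were lower (1.27%). The 111 differed by 0.65 to 3.65 on the log2 scale with a median of 1.07, and the 254 by -5.48 to -0.66 with a median of -1.05. Differences over all genes had a median of 0.02 with 6 arrays and 0.04 with 5.

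The count of 365 rested on few arrays. It was 40 without adjacent array 2, 8 without adjacent array 3, 54 without tumor array 2 and 634 without tumor array 3. With the spread of each gene estimated from all arrays of the series other than adjacent array 1, 2 genes passed, Wfdc18 and Scd2. Where the genotype of the title was used instead, which puts the adjacent array titled KO in the place of adjacent array 1, 17 genes passed, 5 higher and 12 lower in the tumor arrays. With arrays weighted by their quality, 5 of the 19938 genes passed over 6 arrays: Cyp2c67, which was higher, and Clu, Marcksl1, Rplp0 and Slc44a2, which were lower.

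**Figure D1:**
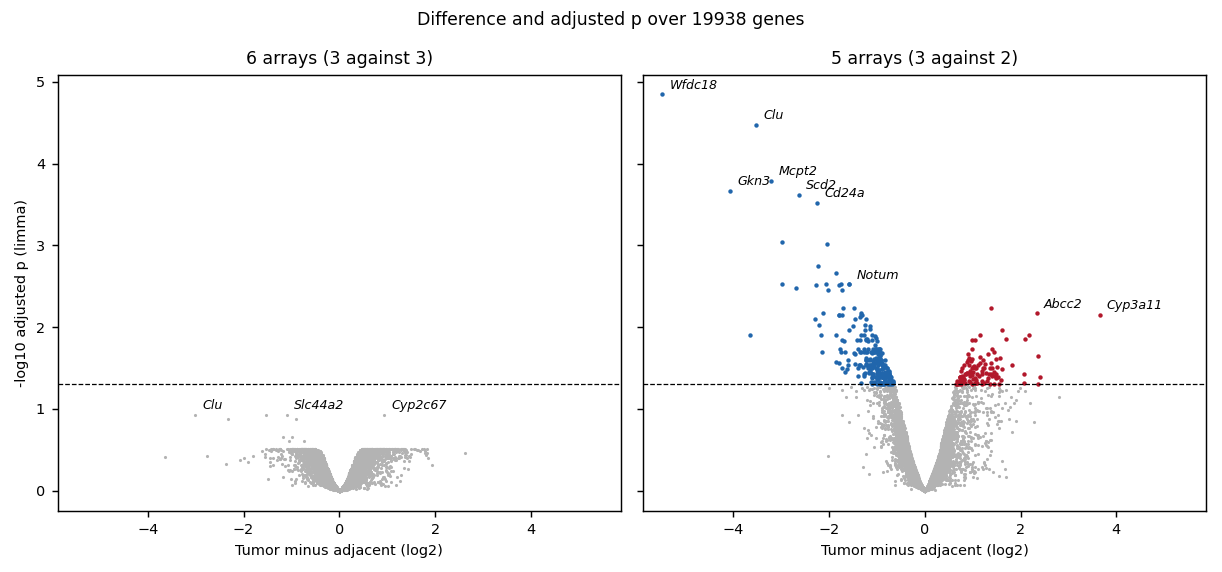
Difference between tumor and adjacent arrays (log2, horizontal) against -log10 of the limma adjusted p (vertical) for 19938 genes, with 6 arrays on the left and without adjacent array 1 on the right; the dashed line marks an adjusted p of 0.05, red points are called higher and blue points called lower in the tumor arrays. No point on the left lies above the line, where the smallest adjusted p is 0.118, and 365 do on the right.

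Adjacent array 1 took no part in the choice of the 365 genes, so its own values could be set beside them. On a scale with the mean of the tumor arrays at 0% and the mean of adjacent arrays 2 and 3 at 100%, it lay at a median of 39.6% in the 111 genes called higher and at 15.3% in the 254 called lower. The median was 25.5% over the 365 genes and also 25.5% over the remaining 19573. In 222 of the 365 genes (60.8%) it lay outside the range of the tumor arrays on the side of the other adjacent arrays, against 29.8% of the remaining genes, and in 112 (30.7%) it lay inside that range, against 52.3%. It reached the range of adjacent arrays 2 and 3 in 5 genes (1.4%), against 42.7%. In 297 genes (81.4%) it was nearer to the tumor mean, against 59.4% of the remaining 19573 genes. Both ends of this scale, and the ranges, come from the 5 arrays that chose the 365 genes, so those genes have wide gaps by selection. Quartiles of the position were 5.1% and 43.1% in the 365 genes and -65.9% and 109.2% in the remaining ones. The shares in the 2 sets therefore cannot be compared as a trait of adjacent array 1. Of the genes called higher, 97 of 111 kept all 3 tumor arrays above all 3 adjacent arrays, beside 7.89% of all genes. Of those called lower, 125 of 254 kept all 3 below, beside 6.33%. The same limit holds for these counts, since the calls already favour genes that separate the other 5 arrays.

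**Figure D2:**
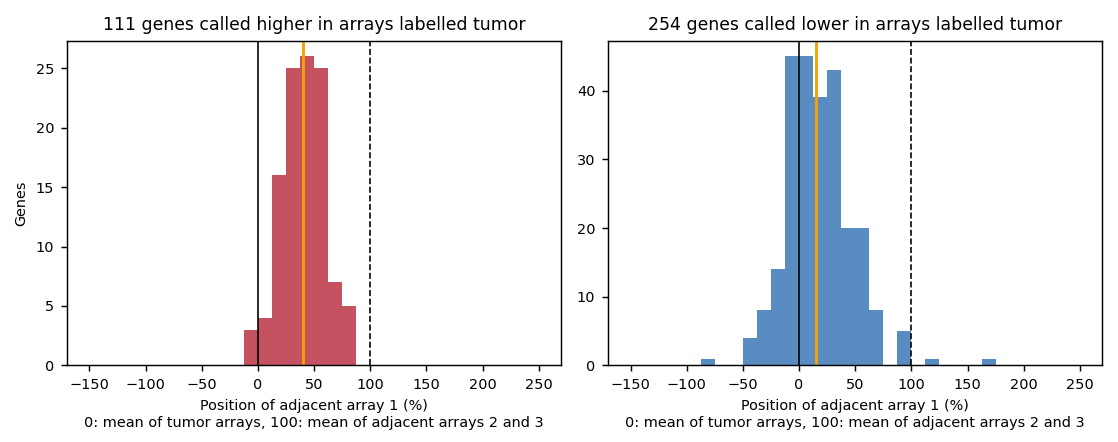
Position of adjacent array 1 (percent, horizontal) in the genes called without it, counted per bin (vertical), for 111 genes called higher (left) and 254 called lower (right); 0 is the mean of the tumor arrays, 100 the mean of adjacent arrays 2 and 3, and the orange line the median, 39.6 and 15.3. In 297 of the 365 genes (81.4%) adjacent array 1 is nearer to the tumor mean, against 59.4% of the remaining genes. Both ends of the scale come from the 5 arrays that chose the 365 genes, so these shares cannot be compared.

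In each direction 12 genes are given as values, since none passed with 6 arrays. They had the smallest p among genes that did not overlap over 6 arrays and met the limits on level and gene class given below. Scd1 and Snord38a, left out by those limits, had a smaller p than several of the lower genes named. Cyp2c67, a cytochrome P450 of the Cyp2c family, lay at 4.75, 4.83 and 4.79 in the tumor arrays and at 3.97, 3.83 and 3.77 in the adjacent arrays. The arrays of each group were close together and adjacent array 1 was with its group, and the difference was 0.93 ± 0.12 (SE; adjusted p = 0.118 over 6 arrays, 0.0142 over 5). Apoa1, the main protein of high-density lipoprotein, lay at 9.51, 9.93 and 10.14 against 8.99, 8.71 and 8.92, a difference of 0.99 ± 0.17. Others higher in all 3 tumor arrays were the myosins of the brush border Myo1a (1.04) and Myo7b (0.78), the alcohol dehydrogenase Adh4 (0.87), the glucuronosyltransferase Ugt2b34 (1.12), the anion exchanger Slc26a3 (0.93), the lipid enzymes Adtrp (1.05) and Cds1 (0.94), the oxysterol-binding protein Osbpl6 (0.68), the chemokine Cx3cl1 (0.69) and the membrane protein Tmem236 (0.91). Without adjacent array 1, 10 of these 12 passed, and Slc26a3 (adjusted p = 0.058) and Tmem236 (0.0772) did not.

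Of the genes lower in the tumor arrays by the same rule, Clu had the largest difference. Clu encodes clusterin, a secreted chaperone that marks regenerating intestinal epithelium, and it lay at 5.60, 5.43 and 5.37 in the tumor arrays and at 7.46, 9.02 and 8.95 in the adjacent arrays. Adjacent array 1 lay between the groups, closer to adjacent arrays 2 and 3, and the groups did not overlap. The difference was -3.01 ± 0.36 with 6 arrays (adjusted p = 0.118) and -3.52 ± 0.14 with 5 (adjusted p = 3.34e-05). Slc44a2, a choline transporter, lay at 4.81, 4.93 and 5.0 against 5.92, 6.08 and 6.02, so adjacent array 1 stood with its group, and the difference was -1.10 ± 0.12. Marcksl1, a substrate of protein kinase C at the membrane, lay at 4.70, 4.57 and 5.28 against 6.49, 7.26 and 7.79, a difference of -2.33 ± 0.31. The remaining 9 genes were Rplp0 (-1.53), Ly6e (-1.0), Htra1 (-0.74), Apobec3 (-1.06), Snx5 (-0.70), Trmt112 (-0.79), Fkbp3 (-0.93), Rps21 (-1.10) and Serpina3n (-1.04). All 12 passed without adjacent array 1.

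**Figure D3:**
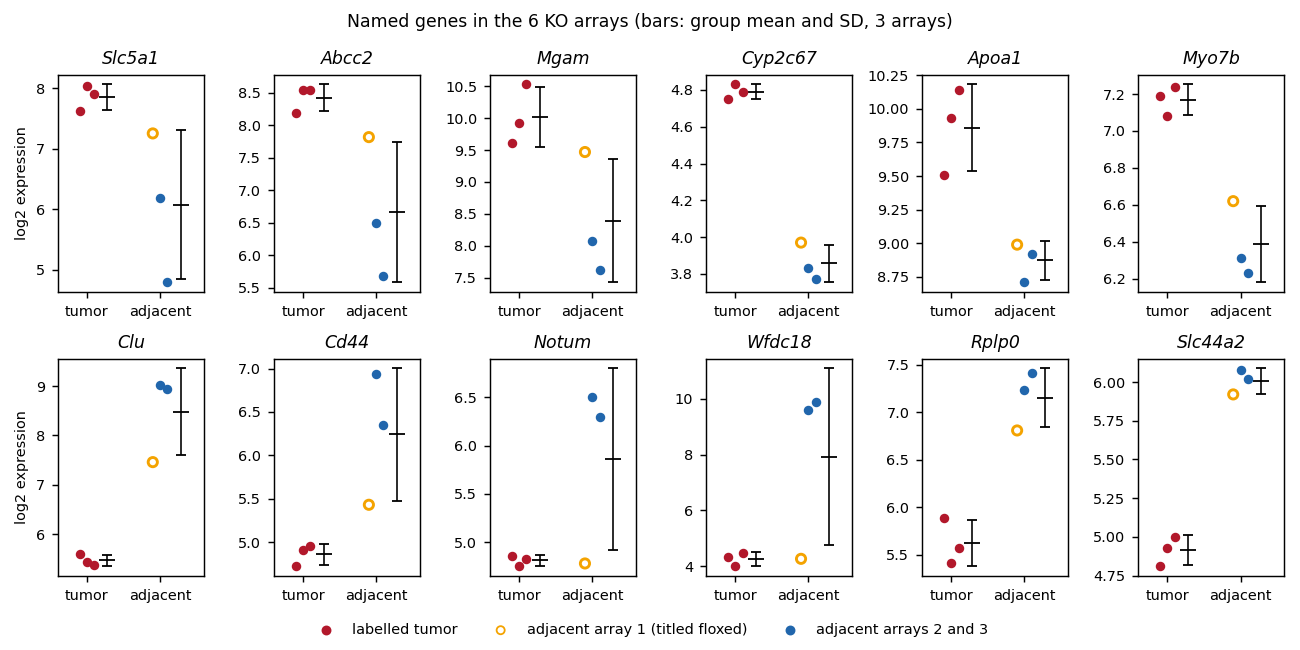
Log2 expression (vertical) of 12 genes in the 3 tumor arrays (red), adjacent array 1 (open orange) and adjacent arrays 2 and 3 (blue); black bars give the mean and SD of each group of 3. Slc44a2 and Cyp2c67 keep adjacent array 1 with the other adjacent arrays, while Notum and Wfdc18 place it among the tumor arrays.

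Enterocyte genes were higher in the tumor arrays as a group. The 30 measured genes of the brush border had a median difference of 0.86 with 6 arrays and 0.98 with 5, and 30 of 30 lay above 0 in both. With 6 arrays 16 of them did not overlap, all higher, beside 7.89% of all genes. With 5 arrays 6 passed, all higher, beside 0.557%. Mgam, the maltase-glucoamylase that ends starch digestion, was named after its values were seen: it lay at 9.61, 9.92 and 10.53 in the tumor arrays and at 9.47, 8.08 and 7.62 in the adjacent arrays. Its difference was 1.63 ± 0.43 with 6 arrays (adjusted p = 0.316) and 2.17 ± 0.27 with 5 (adjusted p = 0.0123). Vil1, the actin bundler of microvilli, lay at 7.88, 8.23 and 8.50 against 7.53, 7.34 and 7.11, with no overlap, and passed without adjacent array 1 (0.98 ± 0.19, adjusted p = 0.0494). The other 4 that passed were Myo1a, Myo7b, the bundler Pls1 (1.12) and the scaffold of microvillar links Ush1c (0.72). Levels of the defining enzymes varied more within groups: Sis, sucrase-isomaltase, lay at 8.97, 9.17 and 7.92 against 8.50, 7.07 and 4.67, and lactase, Lct, at 7.14, 8.04 and 6.91 against 6.90, 6.18 and 4.75. Neither passed in either fit, with adjusted p-values of 0.072 and 0.0783 over 5 arrays.

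Transporters followed the same direction. Over 22 genes of sugar, amino acid and peptide transport the median difference was 0.79 with 6 arrays and 0.98 with 5. Without adjacent array 1, 4 passed, all higher, beside 0.557% of all genes. Slc5a1, the sodium-coupled glucose transporter of the brush border, lay at 7.62, 8.03 and 7.90 in the tumor arrays and at 7.25, 6.18 and 4.79 in the adjacent arrays. No tumor array was as low as the highest adjacent array, and the difference was 1.78 ± 0.50 with 6 arrays (adjusted p = 0.33) and 2.36 ± 0.35 with 5 (adjusted p = 0.0226). Slc2a2, which passes sugars on to the blood, differed by 2.09 with 5 arrays, Slc2a5, the fructose transporter, by 1.24, and Slc5a11, a glucose and inositol carrier named after its values were seen, by 1.38. Slc15a1, the peptide transporter, lay at 7.04, 7.28 and 7.34 against 6.43, 6.26 and 4.81 and did not pass (adjusted p = 0.0582 with 5 arrays). Over 31 genes of vitamin, mineral and ion transport the median was 0.64 with 5 arrays, and 2 passed, both higher, beside 0.557% of all genes. They were Cubn (2.07) and Amn (0.70), the pair that forms the receptor for vitamin B12 bound to intrinsic factor.

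Fat absorption showed the most calls of the absorptive groups. With 6 arrays the median over 27 genes was 0.80, and 18 genes did not overlap, all higher, beside 7.89% of all genes. With 5 arrays the median was 0.98, 27 of 27 genes lay above 0, and 9 passed, all higher, beside 0.557%. Mttp, which loads lipid onto apolipoprotein B, lay at 7.79, 8.27 and 8.31 in the tumor arrays and at 7.42, 7.08 and 6.45 in the adjacent arrays, without overlap, and its difference was 1.36 ± 0.23 over 5 arrays (adjusted p = 0.032). Npc1l1, the cholesterol uptake protein, differed by 1.40, Acsl5, which activates fatty acids, by 1.39, and Dgat1, which makes triglyceride, by 1.25. Slc27a4, a fatty acid carrier, differed by 0.98, and the apolipoproteins Apoa4 and Apoa1 by 1.09 and 1.05. Abcg5 (1.29) and Abcg8 (0.99), the paired transporter that returns sterols to the lumen, were named after their values were seen. In the distinct genes of these 4 absorptive groups, 21 of 110 passed higher and 0 passed lower over 5 arrays (0.557% and 1.27% of all genes).

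Genes of drug and toxin metabolism were also higher. In 59 genes of detoxification the median was 0.78 with 6 arrays, where 25 did not overlap, all higher (7.89% of all genes), and 0.86 with 5 arrays, where 12 passed, all higher (0.557% of all genes). The gene called higher by the largest difference over 5 arrays was Cyp3a11, named after its values were seen, the main cytochrome P450 of drug oxidation in mouse liver and gut. It lay at 7.55, 8.88 and 8.77 in the tumor arrays, at 7.83 in adjacent array 1, and at 5.11 and 4.38 in adjacent arrays 2 and 3. Adjacent array 1 overlapped the tumor arrays, so the difference of 2.63 ± 0.77 with 6 arrays (adjusted p = 0.344) was 3.65 ± 0.39 with 5 (adjusted p = 0.00702). Abcc2, which exports conjugated compounds into the lumen, lay at 8.19, 8.55 and 8.54 against 7.82, 6.49 and 5.68 and differed by 2.34 ± 0.24 over 5 arrays. Cyp3a25 (2.36), Cyp4f14 (1.69), Cyp2d26 (1.60), Ugt2a3 (1.28), Ugt2b34 (1.19), Gstm6 (1.07) and Adh4 (0.95) also passed over 5 arrays. Probe sets of the Cyp3a, Cyp2c and Ugt2 families can pick up close relatives, so a value may hold more than 1 gene of a family. Nr1i3, the receptor CAR that controls such genes, was higher by 1.05 and passed, while Nr1i2, the receptor PXR, lay at 6.19, 6.09 and 7.01 against 5.67, 5.67 and 5.51 and did not (0.84, adjusted p = 0.187).

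Of 32 genes for enterocyte transcription factors and for position along the villus 3 passed over 5 arrays, all higher, beside 0.557% of all genes. The list median was 0.03, and the 3 were Hnf4g, Nr1i3 and Maf (0.88). Hnf4g, a nuclear receptor that with HNF4-alpha keeps enterocytes differentiated, lay at 7.60, 7.60 and 7.76 in the tumor arrays and at 7.02, 6.63 and 5.69 in the adjacent arrays, without overlap. Its difference was 1.21 ± 0.29 with 6 arrays (adjusted p = 0.312) and 1.50 ± 0.25 with 5 (adjusted p = 0.0308). Promoter windows were searched for a core sequence bound by HNF4 factors, CAAAGTCCA, on both strands. It was held by 3 of the 91 genes called higher that had a window in the RefSeq table (3.3%), by 0 of 200 called lower, and by 70 of all 15563 genes with a window (0.45%). The windows of Cyp3a11 and Cyp2c67 are shown because these genes had the largest 5-array difference and the smallest 6-array p among the genes higher in the tumor arrays. Each runs 5′ to 3′ from 250 bases before to 50 after the start, on the minus strand of GRCm38.p6, with the match in capitals: Cyp3a11 at chr5:145879805-145880104, Cyp2c67 at chr19:39648993-39649292.
Cyp3a11: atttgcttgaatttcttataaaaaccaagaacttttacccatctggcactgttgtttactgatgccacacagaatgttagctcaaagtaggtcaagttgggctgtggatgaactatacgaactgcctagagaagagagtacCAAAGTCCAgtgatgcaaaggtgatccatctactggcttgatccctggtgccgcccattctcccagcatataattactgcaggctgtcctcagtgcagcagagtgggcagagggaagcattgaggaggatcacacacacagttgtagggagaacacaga
Cyp2c67: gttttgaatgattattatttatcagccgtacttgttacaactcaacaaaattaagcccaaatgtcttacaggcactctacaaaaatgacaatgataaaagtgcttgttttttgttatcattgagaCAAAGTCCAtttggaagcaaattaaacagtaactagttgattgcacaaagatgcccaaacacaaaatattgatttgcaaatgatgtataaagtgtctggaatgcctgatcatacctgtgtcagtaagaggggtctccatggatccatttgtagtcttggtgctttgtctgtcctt
The match began 109 bases before the start in Cyp3a11 and 125 before it in Cyp2c67, and both read in the direction of the gene. The third called gene with a match was Pipox. A match is a description of these letters and not evidence of binding.

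PPAR targets and genes of fatty acid oxidation were mostly higher in the tumor arrays. By the genotype characteristic both groups carry the deletion, aimed at fibroblasts, so this difference does not measure the effect of losing Ppard. Of 40 genes, 39 lay above 0 in both fits, and the median was 0.48 with 6 arrays and 0.44 with 5. With 6 arrays 17 did not overlap, all higher, beside 7.89% of all genes. With 5 arrays 4 passed, all higher, beside 0.557%. Acaa1b, a peroxisomal thiolase, lay at 6.53, 6.81 and 6.50 against 6.22, 5.39 and 5.77 (1.03 ± 0.17, adjusted p = 0.0299). The others were its relative Acaa1a (0.75), the thioesterase Acot12 (1.37) and Adtrp (1.19). Cd36, the fatty acid receptor, lay at 4.34, 4.96 and 4.95 against 4.14, 4.09 and 3.50 and did not pass (0.96 ± 0.24, adjusted p = 0.108). Of 14 receptors and coactivators, 1 passed, beside 0.557% of all genes called higher. This was Ppargc1a, the coactivator PGC-1-alpha, at 6.87, 6.36 and 7.47 against 5.61, 5.35 and 4.27. Its difference of 2.08 ± 0.37 over 5 arrays had an adjusted p of 0.0371, and the groups did not overlap over 6. Rxra, the partner of PPAR receptors, lay at 5.07, 5.06 and 5.56 against 4.85, 4.59 and 4.59 and did not pass. In 49 nuclear genes of oxidative phosphorylation, 47 lay above 0 with 6 arrays with a median of 0.29, and 0 passed in either limma fit (unadjusted p under 0.05 in 10 with 6 arrays and in 5 with 5). Of 23 genes of sugar metabolism 3 passed over 5 arrays, all higher, beside 0.557% of all genes. The list median was 0.11, with 8 genes below 0. The 3 were Khk (1.05) and Tkfc (1.41) of fructose breakdown and Fbp1 (1.41) of gluconeogenesis.

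Some Wnt-related genes were lower in the tumor arrays than in adjacent arrays 2 and 3, while the list medians were small. Of 17 feedback inhibitors 3 passed without adjacent array 1, all lower, with a median of -0.10, and of 31 Wnt targets 6 passed, all lower, with a median of -0.28, beside 1.27% of all genes called lower. Notum differed by -1.58 ± 0.14 over 5 arrays (adjusted p = 0.00299) and by -1.04 ± 0.38 over 6 (adjusted p = 0.42). Nkd1, which inhibits the Wnt effector Dishevelled, lay at 5.0, 5.22 and 4.92 in the tumor arrays and at 5.32, 6.33 and 6.48 in the adjacent arrays, without overlap. Wif1, a secreted Wnt binder, lay at 4.31, 4.11 and 3.78 against 4.13, 5.16 and 5.43, with adjacent array 1 inside the tumor range. Axin2, the feedback scaffold, lay at 5.51, 5.28 and 5.34 against 5.13, 5.41 and 6.03, overlapped, and did not pass (adjusted p = 0.498 over 5 arrays). Of 25 genes of Wnt secretion, receptors and the destruction complex 0 passed in either limma fit (unadjusted p under 0.05 in 3 with 6 arrays and in 4 with 5).

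Among the Wnt targets, Cd44, a hyaluronan receptor of crypts and adenomas, lay at 4.72, 4.91 and 4.95 in the tumor arrays and at 5.43, 6.94 and 6.35 in the adjacent arrays. All adjacent arrays were higher, adjacent array 1 least, and the difference was -1.38 ± 0.32 with 6 arrays (adjusted p = 0.312) and -1.79 ± 0.19 with 5 (adjusted p = 0.00702). Myc, which drives growth, lay at 4.54, 4.15 and 3.75 against 4.71, 5.78 and 5.95, again without overlap. Sox9, a transcription factor of the crypt base, lay at 5.33, 5.37 and 5.60 against 5.27, 6.18 and 6.15, and Lgr5, the receptor that marks crypt stem cells, at 4.25, 4.11 and 3.92 against 3.94, 5.03 and 5.72. Adjacent array 1 lay below all tumor arrays in Sox9 and inside their range in Lgr5, and both passed only once it was left out (adjusted p = 0.0458 and 0.0305). Prox1 (-1.73) and Mmp7 (-1.27) also passed over 5 arrays, as did Spock2 (-0.76), which was named after its values were seen. Of 25 stem cell markers 3 passed, all lower, beside 1.27% of all genes: Gkn3, Lgr5 and Prom1 (-1.39). Ascl2, at 3.85 to 4.12 against 4.15 to 4.27, and Olfm4, at 4.17 to 5.88 against 4.01 to 5.70, did not pass.

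The core sequence bound by TCF factors at the end of the Wnt pathway, CTTTGAT, was sought in the same way. It was held by 6 of the 200 genes called lower with a window (3.0%), by 4 of the 91 called higher (4.4%) and by 497 of 15563 overall (3.19%), so the share among the called genes was near that of all genes. In the Wnt feedback and target lists it was held by 3 of 33 (9.09%). Its reverse complement, ATCAAAG, shares letters with the HNF4 core, and 0 of the windows of called genes held both. The window of Mmp7, a matrix metalloproteinase of Paneth cells and adenomas, is shown because it is the Wnt target among the genes called lower that had a match. It lies on the plus strand of GRCm38.p6 at chr9:7691840-7692139, and the match in capitals is the reverse complement of the core.
Mmp7: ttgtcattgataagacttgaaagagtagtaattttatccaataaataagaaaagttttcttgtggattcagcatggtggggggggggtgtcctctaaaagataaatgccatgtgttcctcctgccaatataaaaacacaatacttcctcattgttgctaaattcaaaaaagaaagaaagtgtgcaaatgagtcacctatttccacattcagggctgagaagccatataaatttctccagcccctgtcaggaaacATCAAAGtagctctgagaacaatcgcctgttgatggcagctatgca
The match began 4 bases after the start. Mmp7 lay at 5.13, 4.44 and 4.39 in the tumor arrays and at 4.52, 5.78 and 6.06 in the adjacent arrays.

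Genes of fetal and regenerating epithelium and of adenoma surfaces lay mostly below 0, and those that passed over 5 arrays were all lower in the tumor arrays. Over 27 surface and secreted genes known from adenomas and cancers the median was -0.56 with 6 arrays and -0.78 with 5, and 11 passed over 5 arrays, all lower. Over 25 fetal and regenerative genes the median was -0.42 and -0.66, and 7 passed, all lower. Of all genes 1.27% were called lower over 5 arrays. Cd24a, a sialoglycoprotein of crypt cells, lay at 6.59, 6.56 and 6.63 in the tumor arrays and at 6.93, 8.76 and 8.91 in the adjacent arrays, a difference of -2.24 ± 0.13 over 5 arrays (adjusted p = 0.000302). Ifitm3, a membrane protein that restricts viruses, lay at 5.15, 5.46 and 6.04 against 5.63, 8.33 and 8.71, with adjacent array 1 inside the tumor range. Its relatives Ifitm1 (-1.86) and Ifitm2 (-2.06) also passed, and these 3 were the only genes to pass of 31 interferon response genes, whose median was 0.19 over 5 arrays. S100a6, a calcium-binding protein, differed by -2.30, Lrg1, a secreted modifier of TGF-beta signals, by -2.26, and the keratins Krt23 and Krt7 by -1.72 and -1.33. Il33 (-1.15), Anxa1 (-0.80) and Anxa5 (-0.66) were lower too and passed.

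**Figure D4:**
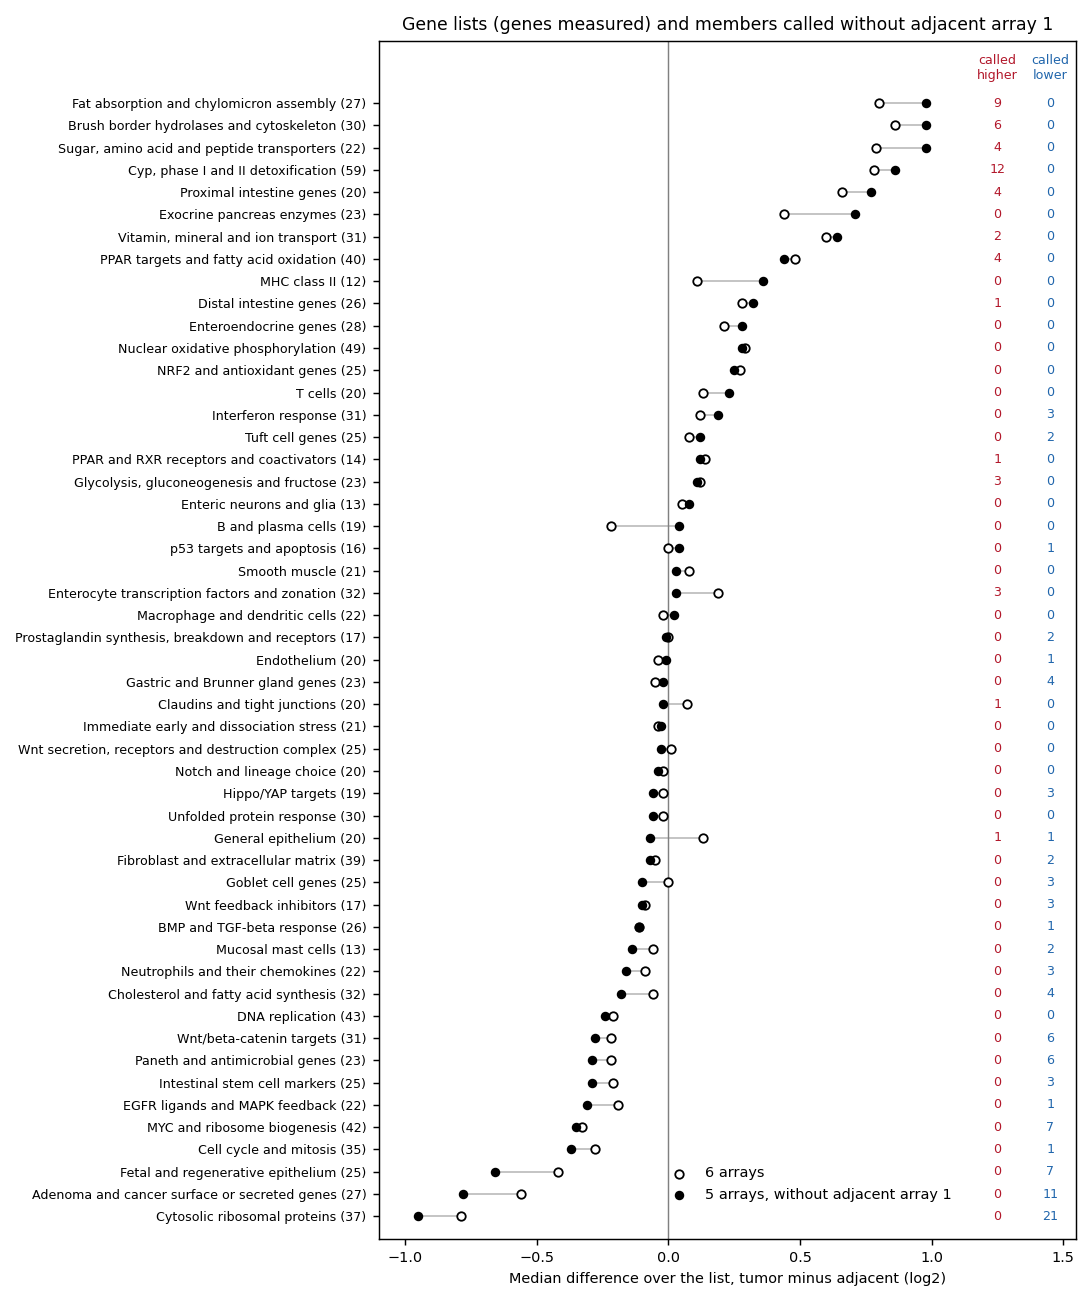
Median log2 difference (horizontal) of each gene list with 6 arrays (open) and with 5 (filled); the number of genes measured follows each name, and the columns on the right count members called higher and lower with 5 arrays. Absorptive and detoxification lists sit at 0.60 to 0.98 and ribosomal proteins, adenoma and fetal genes at -0.42 to -0.95.

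Cell growth genes were lower in small steps. In 35 genes of the cell cycle 33 lay below 0 with 6 arrays and 35 with 5, with medians of -0.28 and -0.37. Over 5 arrays 1 passed, beside 1.27% of all genes called lower: Ccna2 (-1.05), a cyclin of S phase and mitosis. Mki67, the proliferation antigen, lay at 4.95, 4.69 and 4.25 in the tumor arrays and at 4.97, 5.72 and 5.25 in the adjacent arrays, without overlap, and did not pass (-0.86 ± 0.23, adjusted p = 0.123 over 5 arrays). Of 43 DNA replication genes 13 did not overlap with 6 arrays, all lower, beside 6.33% of all genes, and 0 passed in either limma fit (unadjusted p under 0.05 in 10 and in 17). Mcm7, a subunit of the replicative helicase, lay at 4.86, 4.85 and 4.32 against 5.14, 5.46 and 5.45. In 42 genes of MYC and ribosome biogenesis, 20 did not overlap with 6 arrays and 7 passed with 5, all lower, beside 6.33% and 1.27% of all genes. Among the 7 were Pes1 (-0.94), Nop10 (-1.36) and Ddx21 (-0.72). Pes1, needed to build the large ribosomal subunit, lay at 5.74, 5.95 and 5.71 against 6.24, 6.73 and 6.76.

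Ribosomal proteins had the highest share of called members of any list. Of 37 genes 29 did not overlap with 6 arrays and 21 passed with 5, all lower, beside 6.33% and 1.27% of all genes, and the median was -0.79 and -0.95. Rplp0, a protein of the ribosomal stalk, lay at 5.89, 5.41 and 5.57 in the tumor arrays and at 6.81, 7.24 and 7.41 in the adjacent arrays. Adjacent array 1 was nearer to its own group, and the difference was -1.53 ± 0.19 with 6 arrays (adjusted p = 0.118) and -1.70 ± 0.17 with 5 (adjusted p = 0.00589). Rps4x lay at 7.15, 7.52 and 7.22 against 7.88, 8.51 and 8.51, and Rpl7 at 6.03, 6.24 and 6.12 against 6.64, 7.39 and 7.31. Both kept all adjacent arrays above all tumor arrays. Genes of ribosomal proteins have many processed copies in the genome whose sequence a probe can share, so a value may include such copies. Small nucleolar RNAs, which guide the chemical marking of ribosomal RNA and often lie in introns of ribosomal genes, were lower in part. Of 51, 5 passed over 5 arrays, all lower, and over 6 arrays 13 lay below without overlap and 2 above. Of all genes 1.27% were called lower, 6.33% lay below without overlap and 7.89% above. The 5, named after their values were seen, were Snord14e (-1.07), Snord16a (-1.60), Snord38a (-1.32), Snord58b (-0.88) and Snord61 (-1.42). Of 1194 olfactory and vomeronasal receptor genes, which are hardly expressed in gut, 0 passed in the limma fits, and 39 had an unadjusted p under 0.05 with 6 arrays and 59 with 5.

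**Figure D5:**
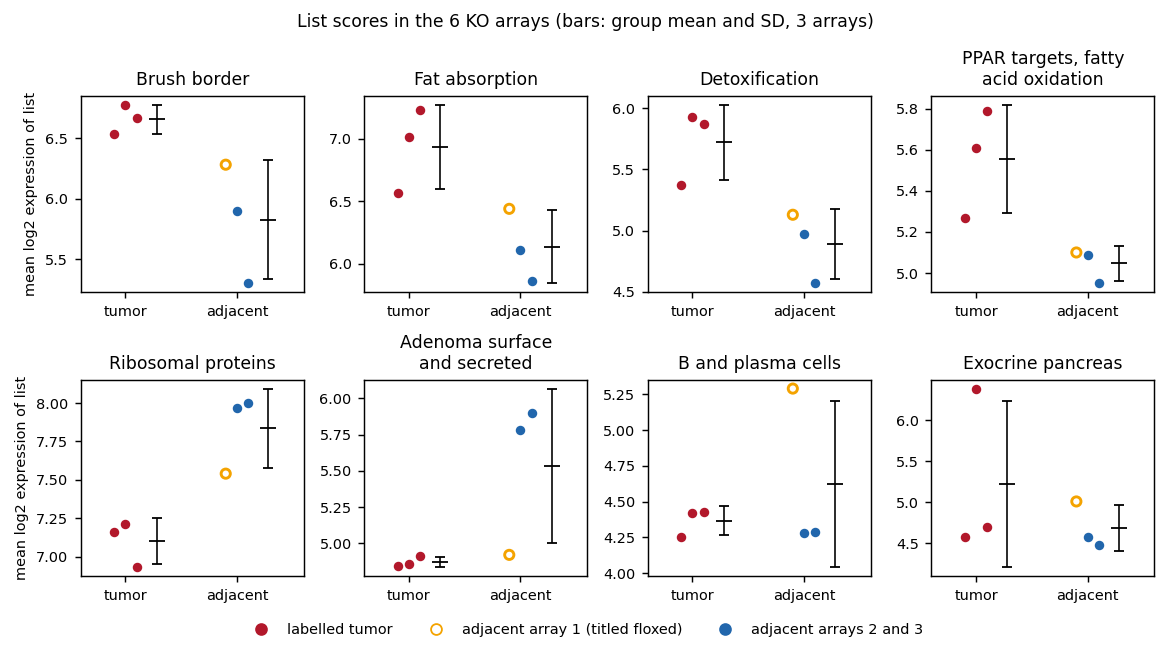
Mean log2 expression over the genes of 8 lists (vertical) in the 3 tumor arrays (red), adjacent array 1 (open orange) and adjacent arrays 2 and 3 (blue), with black bars for the mean and SD of each group of 3. Adjacent array 1 alone is high for B and plasma cell genes, at 5.29, and tumor array 2 alone for exocrine pancreas genes, at 6.39.

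The 3 genes with the largest falls over 5 arrays, Wfdc18, Gkn3 and Pla2g2a, were chosen after their values were seen. Wfdc18, a small protein with a whey acidic protein domain, lay at 4.32, 4.00 and 4.47 in the tumor arrays, at 4.27 in adjacent array 1, and at 9.61 and 9.88 in adjacent arrays 2 and 3. The difference was -5.48 ± 0.18 over 5 arrays (adjusted p = 1.42e-05) and -3.65 ± 1.23 with an adjusted p of 0.392 over 6. Gkn3, a gastrokine, lay at 3.86, 4.30 and 4.44 against 4.34, 8.51 and 8.02, and Pla2g2a, a secreted phospholipase that kills bacteria, at 5.13, 4.09 and 3.88 against 4.19, 7.31 and 8.70. In each of these 3 genes adjacent array 1 lay inside the range of the tumor arrays. Muc6, the mucin of gastric and Brunner glands, followed at 4.21, 4.68 and 5.17 against 4.63, 6.83 and 6.95 (-2.21, adjusted p = 0.00939), while Tff2, its usual companion, lay at 5.38, 6.31 and 7.71 against 5.66, 8.01 and 6.15 and did not pass. Of 23 gastric and Brunner gland genes 4 passed, all lower, beside 1.27% of all genes, with a list median of -0.02.

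In the lists of secretory cells all genes that passed over 5 arrays were lower. Goblet cell genes had a median of 0.00 with 6 arrays and -0.10 with 5. Of 25 measured, 3 passed, all lower, beside 1.27% of all genes: Agr2 (-2.16, named after its values were seen), Fut2 (-1.78) and Creb3l1 (-0.68). The mucin Muc2, at 7.86 to 8.38 in the tumor arrays and 7.36 to 8.72 in the adjacent arrays, did not pass. Of 23 Paneth and antimicrobial genes 6 passed, all lower, beside 1.27% of all genes. A lysozyme and a defensin of Paneth granules did not pass: Lyz1 lay at 7.50, 6.23 and 4.53 against 6.09, 5.87 and 5.46, and Defa24 at 4.61, 4.29 and 3.16 against 3.73, 3.70 and 3.47. The 6 were Pla2g2a, Habp2 (-1.45), Mmp7, Duoxa2 (-1.24), Duox2 (-1.15) and Sox9, of which Duox2 and Duoxa2 form the oxidase that makes hydrogen peroxide at the lumen. Enteroendocrine genes lay above 0 in 24 of 28 with a median of 0.21 over 6 arrays, and 8 did not overlap, all higher, beside 7.89% of all genes. Of these 28, 0 passed in either limma fit (unadjusted p under 0.05 in 6 and in 8). Of 25 tuft cell genes, with a median of 0.08 over 6 arrays, 2 passed over 5, both lower, beside 1.27% of all genes. They were Cd24a and Avil (-0.80), while Dclk1 did not pass. Of 32 lipid synthesis genes 4 passed over 5 arrays, all lower, beside the same 1.27%. Scd2 lay at 4.21, 4.39 and 4.20 against 4.40, 6.77 and 7.02 (-2.63 ± 0.15, adjusted p = 0.00024). The others were Scd1 (-0.83), Fads2 (-1.01) and Acaca (-0.70).

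Genes of the proximal intestine were higher, with a median of 0.77 over 20 genes and 4 called over 5 arrays. Those of the distal intestine were less so, with 0.32 over 26 genes and 1 called. Of all genes 0.557% were called higher. No label gives the length of intestine from which a section came, so position along the gut and tissue label cannot be told apart. All 4 called proximal genes, Slc2a2, Npc1l1, Slc5a11 and Apoa4, are also counted among the absorptive genes above.

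Genes of other cell types were read beside these results. Of 108 genes of immune cells 5 passed over 5 arrays and of 93 genes of stroma, endothelium, smooth muscle and enteric neurons 3 passed, all lower (4.6% and 3.2%, beside 1.27% of all genes). Those of immune cells were the mucosal mast cell proteases Mcpt1, at 3.12, 3.44 and 2.82 against 2.91, 6.27 and 5.93, and Mcpt2, at 3.80, 4.15 and 3.85 against 3.77, 7.24 and 7.03, and the neutrophil-associated genes Il1b (-1.18), S100a9 (-0.93) and Ltf (-0.78). Over all 22 genes of the neutrophil list the median was only -0.16 with 5 arrays, with 15 below 0 and 7 above. The mast cell genes Cpa3, at 2.64 to 2.89 against 2.63 to 3.31, and Cma1, at 3.33 to 3.57 against 3.50 to 3.86, did not pass, and the mean log2 value over the mast cell list (its score) lay at 3.82 to 3.93 in the tumor arrays, at 3.84 in adjacent array 1 and at 4.39 and 4.41 in the other adjacent arrays. Dcn (-1.23) and Igfbp5 (-1.45) passed of the fibroblast genes, but Col1a1, at 5.77 to 6.05 against 6.05 to 6.17, Col3a1 and Pdgfra did not, and the list score lay at 4.68 to 4.85 against 4.86 to 4.93. Prox1, counted above with the Wnt targets, was the gene called of the endothelial list. The part of these cells in the results above was not tested. In epithelium cut by laser from sections, fewer cells of a type and less RNA per cell cannot be told apart.

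Single arrays also stood apart for other cell types. Ms4a1, the B cell antigen CD20, lay at 2.52 to 2.74 in the tumor arrays, at 5.34 in adjacent array 1 and at 2.53 and 2.76 in adjacent arrays 2 and 3, and Cr2, a complement receptor of B cells, at 2.96 to 3.09, 6.06, and 2.90 and 3.10. The B cell list score was 5.29 in adjacent array 1 and 4.25 to 4.43 in the other 5 arrays. The score of MHC class II genes was 6.35 there and 6.21 in tumor array 3, against 5.05 to 5.40 elsewhere. Tumor array 2 alone was high in genes of the exocrine pancreas, with a score of 6.39 against 4.48 to 5.01, and carried the protease Cpb1 at 6.84 against 3.07 to 4.41. The array rich in B cell genes is no part of the 5-array values, and without tumor array 2 as well 54 of the 365 genes were called, 6 higher and 48 lower.

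The lists, chosen with earlier results of these data known, held 1219 genes, of which 3.7% were called higher and 6.8% lower over 5 arrays. The shares over all genes were 0.557% and 1.27%. Of the 365 calls, 128 lay in the lists, 45 higher and 83 lower. Among the rest, named after their values were seen, the higher genes included the amino acid transporter Slc7a15 (1.83), the acetyltransferase Nat8 (1.62), the class I molecule H2-Q2 (1.61), which has close relatives in its family, the antimicrobial peptide Leap2 (1.47) and the monocarboxylate carrier family member Slc16a5 (1.38). Lower genes outside the lists included Marcksl1 (-2.68), Bex3 (-2.23), the potassium channel subunit Kcne3 (-2.14), the ion transport regulator Fxyd3 (-2.05), the peptidoglycan receptor Pglyrp1 (-2.01), the actin-binding peptide Tmsb10 (-1.86), the tubulin regulator Stmn1 (-1.69), the epithelial transcription factor Ehf (-1.61) and Lgr4 (-1.34), a receptor for R-spondins like Lgr5. Slc7a15 lay at 6.07, 6.56 and 6.88 in the tumor arrays and at 5.49, 5.12 and 4.24 in the adjacent arrays, and H2-Q2 at 9.06, 8.90 and 9.41 against 8.66, 7.70 and 7.33. In both, the groups did not overlap with adjacent array 1 included.

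The adjacent array that is titled KO but carries a floxed genotype characteristic was read against the same 365 genes. It lay at a median of 80.6% of the way from the tumor mean to the mean of adjacent arrays 2 and 3, with 120.0% in the genes called higher and 51.3% in those called lower, and at 68.4% over the remaining genes. In it Clu was at 8.81, Cd24a at 8.57, Gkn3 at 8.87, Wfdc18 at 4.49, Slc5a1 at 5.25 and Cyp3a11 at 3.79. It was nearer to the tumor mean in 39.2% of the 365 genes and in 46.8% of the remaining ones, where adjacent array 1 was so in 81.4% and 59.4%, with the limit of the scale given above. Its correlation with the KO arrays was 0.822 to 0.852, below the range among them, so its levels are set beside theirs only with that gap in view.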

How the data were processed

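Per the labels' protocols, epithelial RNA from laser dissection went through a GeneChip WT Pico kit with a biotin label. The deposited table gives 1 log2 expression value per probe set and array; the submitters' processing notes name Partek and RMA, with no version, and other steps are not given in the sources used here. Of 35556 probe sets, 21789 had 1 gene symbol in the platform's annotation, 1621 several and 12146 none here; 21698 Entrez identifiers matched the reference table. Where a gene had several probe sets (999 of 19938 genes), the one brightest on average in these 6 arrays stood for it. In the genes named here every other probe set had the same sign over 5 arrays, but some differed less (Apobec3 -0.31 against -1.07, Trmt112 -0.25 against -0.89, Ppargc1a 1.30 against 2.08).

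Groups followed the genotype characteristic and description. limma 3.58.1 in R 4.3.3 (lmFit, eBayes, two-sided, Benjamini-Hochberg over all genes, call at adjusted p under 0.05) was fitted to the 6 arrays alone and to 5 without adjacent array 1, and checked on simulated data. The number of arrays limits precision.

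The comparison, the 51 gene lists (1219 measured genes) and the rule for named genes were chosen with earlier results of these data known, so lists are described and not tested. The rule named Ppard, S100a4 and Apc, the 12 largest called differences in each direction over 6 arrays, filled up to 12 by smallest unadjusted p (with 0 called, all were such) among genes without overlap and with a higher group above the median level of 4.50, predicted and non-coding genes, receptors of smell and taste and pseudogenes left out, and up to 6 members per list, called ones first. Genes outside it, among them called list members and defining markers, were added after their values were seen. Promoter windows were RefSeq's for GRCm38.p6, the first listed per gene. Alternatives were other scaling, dim genes left out (30%), all or median probe sets, variance options, array weights, thresholds, each array left out, number blocks, genotype by title, and a spread shared by all arrays.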

Additional observations from a re-analysis of the deposited data

How the results depend on the processing

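With 6 arrays the count of genes called stayed at 0 under other scaling, filters, probe set choices, thresholds, a replicate block and a spread shared by all 12 arrays. It was 5 with array weights and 17 with genotype by title, and leaving out 1 array gave 0 to 365, where 365 is the set without adjacent array 1. Alternatives for the 5-array fit were chosen after seeing the data. The 365 became 605 with all probe sets, 612 with array weights and 2 with a spread shared by all other arrays, which takes in the unlike floxed arrays. They became 40 at an adjusted p under 0.01, 681 under 0.1 and 211 with a difference of at least 1, and leaving out 1 more array gave 8 to 634. Quantile normalization, centring, leaving out dim genes, median probe sets and the trend and robust option gave 301 to 508. Apart from thresholds and numbers of arrays, the cause was not tested.

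Arrays of the same replicate number had deviation correlations of 0.034, -0.019 and 0.172 by description, and -0.013, -0.206 and -0.158 by title. Tumor array 2 and adjacent array 1, which share no number, had 0.181. These values cannot tell whether arrays share a mouse. With the numbers as a replicate block, the 5-array fit called 673 genes by description number, 319 of them among the 365. By title number it called 893, all 365 among them.

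Of 2536 gene values under the 6-array alternatives 25 changed sign, and of 2218 under the 5-array ones 20 did, 539 no longer passed and 34 newly passed. The sign changes lay in genes that passed in neither fit. With 6 arrays, quantile normalization gave -0.11 for Muc2, and array weights -0.18 for Muc2, -0.17 for Epcam and -0.04 for Krt8. Genotype by title gave -0.22 for Epcam, -0.82 for Krt8, -0.07 for Apc, -0.62 for Pparg, 0.03 for Cr2, 0.06 for Col1a1 and 0.11 for S100a4. Leaving out 1 of the 6 arrays gave Muc2 -0.33 to 0.35, Epcam -0.36 to 0.43, Krt8 -0.15 to 0.57, Lyz1 -0.43 to 1.06, Tff2 -0.76 to 0.57, Apc -0.01 to 0.28, Pparg -0.07 to 0.35, Cr2 -1.57 to 0.01, Axin2 -0.34 to 0.10 and Olfm4 -0.07 to 0.90. With 5 arrays, Cr2 was -0.03 after quantile normalization, -0.01 with array weights and -0.02 with the title replicate block, which gave Apc -0.00 and Pparg -0.15. The description replicate block gave Epcam 0.19, Krt8 0.20 and Lyz1 -0.28. Leaving out 1 of the 5 arrays gave Cr2 -0.09 to 0.12, Epcam -0.60 to 0.19, Krt8 -0.51 to 0.20, Lyz1 -0.28 to 1.20, Ms4a1 -0.12 to 0.11, Apc -0.00 to 0.29, Pparg -0.15 to 0.26, S100a4 -0.24 to 0.10 and Tff2 -1.54 to 0.32. Of the list medians, 549 of 560 values with 6 arrays and 449 of 490 with 5 moved by less than the spread between replicates.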
